A study of Mus musculus with 35 samples.

Results

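Complement components and regulators were followed in podocytes sorted from mice with mutations in Lmx1b, the LIM-homeodomain transcription factor of podocytes. The set was given by name and holds 9 of the 33292 genes in the expression matrix. C1ra and C1s1 are the proteases of the first complement complex, C2, C4b, C3 and Cfb act after them, and Serping1, Cd55 and Cd59a encode inhibitors. All 9 symbols were matched to a gene identifier of the matrix. Levels are TPM, the transcript's share of a library after correction for length, scaled to the same total in every mouse, so that levels can be set side by side between genes.

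There were 35 mice in 6 groups. Control mice, labelled WT, were Lmx1b+/lox, and the knock-in mice were Lmx1bH77L/lox (H77L, a mutation in the LIM-A domain) or Lmx1bC118F/lox (C118F, in the LIM-B domain). Every mouse, controls included, carried a floxed Lmx1b allele together with tetO::Cre, a doxycycline-inducible Cre whose activator was driven by a podocyte promoter, and received 2 mg/ml doxycycline in the drinking water for 7 days. After recombination, WT podocytes therefore kept a wild-type allele and knock-in podocytes kept only the mutated one. From the start of doxycycline, mice were injected every other day with bortezomib (Btz, a proteasome inhibitor) at 0.3 μg/g body weight or with the solvent DMSO. Mice were 7 to 10 weeks old, and n was 6 per group except for 5 mice in C118F with Btz. Podocytes were gated on the green fluorescence that Cre switches on, and poly(A) RNA was sequenced from each mouse.

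The complement system tags and lyses targets through a protease cascade. In the classical pathway C1r cleaves C1s, which cleaves C4 and C2. The classical and alternative pathways meet at C3, and factor B, encoded by Cfb, belongs to the alternative one. C1 inhibitor, the product of Serping1, blocks C1r and C1s, CD55 speeds the decay of the C3 convertases, and CD59 blocks the membrane attack complex. Glomerular cells are exposed to plasma proteins, and complement injury of podocytes is known from several kidney diseases.

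Depth, recovered from the TPM steps, ranged from 5269029 to 24148758 reads per mouse, and the only mouse under 14038107 reads was C118F Btz replicate 2. The podocyte markers Nphs1, Podxl and Wt1 were expressed in every group, and Ptprc, which defines leukocytes, did not exceed 0.241 TPM. Some mice stood apart in marker genes. WT DMSO replicate 1 had the highest summed levels of 12 leukocyte markers (481 TPM) and 9 fibroblast markers (971 TPM), and C118F DMSO replicate 1 that of 9 endothelial and mesangial markers (2338 TPM, of which 2166 TPM was Ren1, the renin gene, and 25.3 TPM the endothelial gene Pecam1). Results that rest on these mice are given with and without them. The median Lmx1b level was 71.5 TPM in WT DMSO, 120 in H77L DMSO and 104 in C118F DMSO, a value that does not separate mutated from wild-type transcripts.

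The proteases of the first complex, C1ra and C1s1, were several-fold higher in the knock-in podocytes under either treatment. C1ra lies on chromosome 6 (chr6:124489364-124500402, plus strand, GRCm39, ENSMUSG00000055172) and C1s1 lies next to it on the other strand (chr6:124507297-124559389, ENSMUSG00000038521). Their promoters are shown because these neighbouring genes changed side by side, together with that of Cd59a, which changed the other way. Each run is the coding strand from 250 bases before to 50 bases after a transcript start (RefSeq, GRCm38.p6). Capitals mark matches to TTCNNNGAA, a STAT-type site, or to GAAA repeated after 2 bases, the core of interferon-stimulated response elements. The motif TAATTA, a homeodomain core, was searched on both strands as well, and no capitals in the windows below belong to it.
C1ra promoter (chr6:124512371-124512670, plus strand): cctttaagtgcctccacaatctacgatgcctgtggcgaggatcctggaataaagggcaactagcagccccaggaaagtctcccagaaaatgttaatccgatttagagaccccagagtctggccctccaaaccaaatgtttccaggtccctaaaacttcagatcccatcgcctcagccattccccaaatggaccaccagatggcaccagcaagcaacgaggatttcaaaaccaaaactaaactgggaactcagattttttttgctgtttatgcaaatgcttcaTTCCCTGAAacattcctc
C1s1 promoter (chr6:124542310-124542609, minus strand): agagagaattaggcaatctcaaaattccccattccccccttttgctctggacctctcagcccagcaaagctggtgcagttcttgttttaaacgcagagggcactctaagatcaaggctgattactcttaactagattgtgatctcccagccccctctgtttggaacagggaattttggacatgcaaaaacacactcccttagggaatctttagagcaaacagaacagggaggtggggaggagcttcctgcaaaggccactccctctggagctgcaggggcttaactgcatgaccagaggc
Cd59a promoter (chr2:104095551-104095850, plus strand): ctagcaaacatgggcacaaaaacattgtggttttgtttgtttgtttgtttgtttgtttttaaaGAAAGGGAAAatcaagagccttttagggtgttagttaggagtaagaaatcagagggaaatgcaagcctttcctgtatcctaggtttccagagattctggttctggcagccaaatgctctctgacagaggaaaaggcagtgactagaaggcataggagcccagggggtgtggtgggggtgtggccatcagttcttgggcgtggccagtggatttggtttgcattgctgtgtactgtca
The window of C1ra held the STAT-type motif, which is found in 8.30% of 32851 mouse promoter windows of 300 bases, and the window of Cd59a held the repeated GAAA motif, which is found in 3.44% of them. TAATTA is found in 5.29%. The C1s1 window held none of these motifs. Promoter windows were at hand for 5 of the 9 members (C3, C1s1, C1ra, Cd55 and Cd59a). Those of C3 and Cd55, and another C1s1 window that overlaps the one shown, held none of these motifs either. The match in C1ra lies after the transcript start, at an offset of 32 bases.

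C1ra was measured at 9.73 to 19.7 TPM in WT DMSO mice (median 14.2), 40.6 to 95.1 in H77L DMSO (median 53.8) and 41.5 to 75.7 in C118F DMSO (median 50.2). Under Btz it was at 7.63 to 23.3 TPM in WT (median 11.3), 16.9 to 39.3 in H77L (median 31.5) and 27.4 to 52.0 in C118F (median 37.8). Only the H77L and WT mice under Btz overlapped, through a single H77L mouse at 16.9 TPM and a single WT mouse at 23.3 TPM. Relative to WT under DMSO, C1ra rose by a log2 fold change of 1.96 ± 0.20 (SE) in H77L (adjusted p = 2.7e-06) and by 1.82 ± 0.18 in C118F (adjusted p = 2.9e-06). Under Btz it rose by 1.24 ± 0.24 (adjusted p = 0.00116) and 1.601 ± 0.26 (adjusted p = 3.3e-04). All fold changes are on the scale of log2(TPM + 1), and all adjusted p-values come from limma with Benjamini-Hochberg adjustment over all genes tested in a comparison. In these bulk samples fewer cells of a type and less RNA per cell cannot be told apart.

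C1s1 followed the same order of groups. It was at 6.73 to 17.6 TPM in WT DMSO (median 9.59), 41.9 to 88.5 in H77L DMSO (median 50.04) and 29.0 to 74.0 in C118F DMSO (median 38.8). Under Btz it was at 1.83 to 10.97 TPM in WT (median 8.11), 16.7 to 41.8 in H77L (median 25.7) and 19.4 to 51.5 in C118F (median 36.2). No knock-in mouse was as low as any WT mouse given the same treatment. The log2 fold changes under DMSO were 2.34 ± 0.24 in H77L (adjusted p = 4.0e-06) and 1.91 ± 0.25 in C118F (adjusted p = 5.9e-05), and those under Btz 1.81 ± 0.32 (adjusted p = 5.4e-04) and 2.19 ± 0.34 (adjusted p = 2.7e-04). The ratio of C1ra to C1s1 TPM was 1.02 ± 0.114 (SD, n = 6) in H77L DMSO and 1.29 ± 0.335 (SD, n = 6) in C118F DMSO, against 1.41 ± 0.414 (SD, n = 6) in WT DMSO. Under Btz it was 1.21 ± 0.326 (SD, n = 6) in H77L, 1.18 ± 0.225 (SD, n = 5) in C118F and 2.10 ± 1.11 (SD, n = 6) in WT, and the ranges of mice in WT and knock-in groups overlapped under both treatments. C1ra shares 42.9% of its 50-base transcript windows with C1rb, and C1s1 shares 19.3% with C1s2. Levels of these copies did not exceed 0.258 TPM for C1rb and 0.852 TPM for C1s2. How reads from the shared stretches were split between copies is uncertain. C1s1 also overlaps C1rb on the opposite strand, and whether counting used strand is not given in the sources used here.

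Serping1 (chr2:84595705-84620873, minus strand, GRCm39, ENSMUSG00000023224), which encodes the inhibitor of these proteases, was several-fold higher in either mutant. It was at 97.1 to 267 TPM in WT DMSO (median 131), 418 to 1557 in H77L DMSO (median 706) and 515 to 1670 in C118F DMSO (median 1042). Under Btz it was at 137 to 191 TPM in WT (median 158), 325 to 485 in H77L (median 402) and 347 to 840 in C118F (median 376). All knock-in mice lay above all WT mice, under both treatments. By mean level the gene ranked 1293rd of all genes in WT DMSO, 148th in H77L DMSO and 120th in C118F DMSO.

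Under DMSO, Serping1 rose by a log2 fold change of 2.42 ± 0.31 in H77L (95% interval 1.77 to 3.08, adjusted p = 2.6e-05) and 2.80 ± 0.27 in C118F (2.21 to 3.38, adjusted p = 3.2e-06), that is 5.36-fold and 6.95-fold. Under Btz it rose by 1.33 ± 0.10 in H77L (adjusted p = 1.2e-07) and 1.62 ± 0.22 in C118F (adjusted p = 8.5e-05), that is 2.52-fold and 3.07-fold. The highest WT value, 267 TPM, belonged to WT DMSO replicate 1, the mouse with the high leukocyte and fibroblast markers, and the highest value of all, 1670 TPM, to C118F DMSO replicate 1, the mouse with the high Ren1 and Pecam1. Without both mice the log2 fold change of C118F against WT under DMSO was 2.83 (adjusted p = 7.5e-07), and without WT DMSO replicate 1 that of H77L was 2.61 (adjusted p = 9.5e-06). Left out in the same way, the mice changed no call of C1ra, C1s1 or Cd59a, whose log2 fold changes were then 2.05, 2.48 and -1.31 in H77L and 1.81, 1.89 and -1.20 in C118F. The study itself had picked Serping1 from these libraries and followed it by qPCR, which is not analysed here, so that its call is not independent evidence. By the study's account, qPCR showed no significant change of Serping1, and the difference seen by sequencing was not reproduced.

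**Figure D1:**
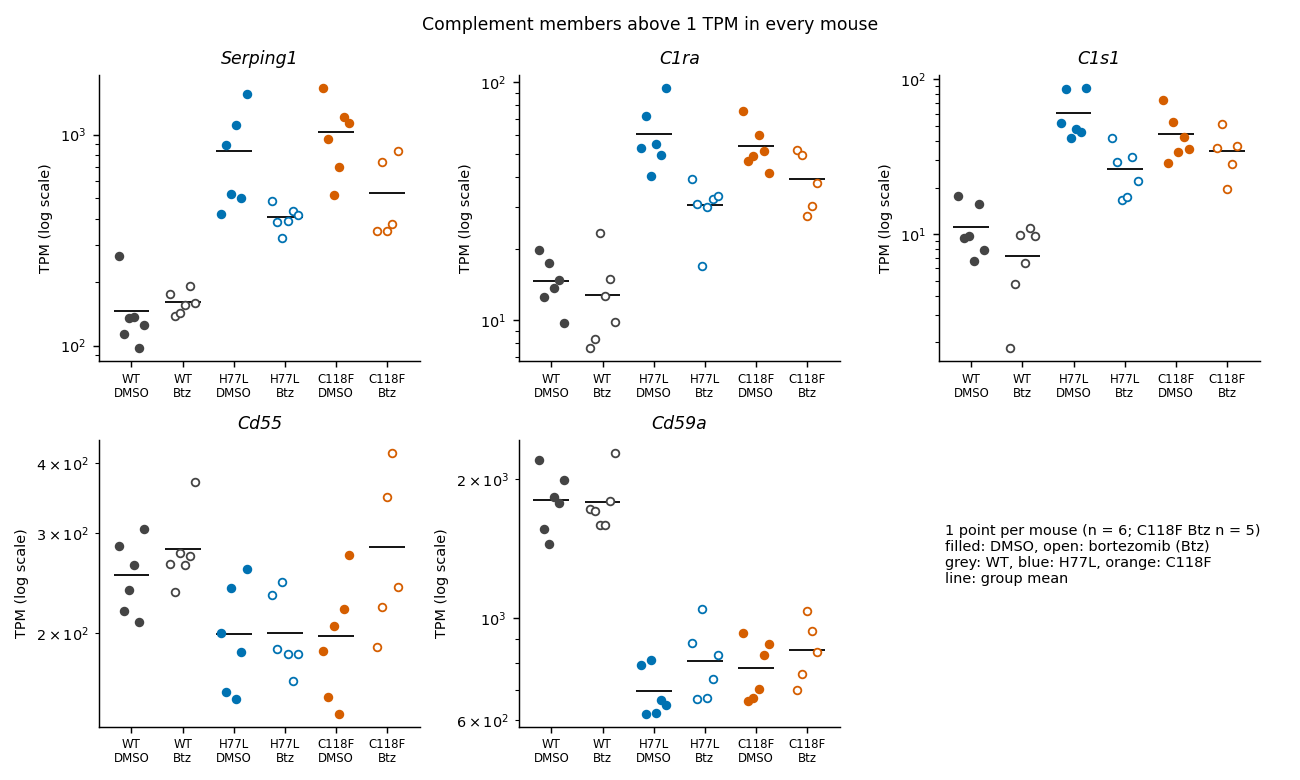
TPM of the 5 members above 1 TPM in every mouse (log axes), with 1 point per mouse, filled for DMSO and open for Btz, and a line at the group mean. Serping1, C1ra and C1s1 are higher in both knock-in genotypes than in WT, Cd59a is lower, from 1447 TPM or more in WT DMSO to 927 or less in the knock-in DMSO groups, and the groups overlap for Cd55.

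The components that act after C1 were at or near 0 in all groups. C3 (chr17:57510964-57535155, minus strand, GRCm39, ENSMUSG00000024164), the protein on which the pathways converge, had a median of 0.787 TPM in WT DMSO, 0.282 in WT Btz, 0.836 in H77L DMSO, 0.228 in H77L Btz, 0.777 in C118F DMSO and 0.664 in C118F Btz. A single mouse stood far above its group in H77L DMSO (replicate 6, 11.8 TPM, 358 recovered reads) and in C118F DMSO (replicate 1, 12.5 TPM, 368 reads). In these groups the mouse with the highest C3 was also the one with the highest Serping1, C1ra and C1s1. In H77L DMSO replicate 6 the podocyte markers summed to 5901 TPM, the lowest of its group, and C118F DMSO replicate 1 had the lowest sum of its group as well (5609 TPM). The part of these marker levels in the C3 values was not tested.

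C4b (chr17:34947354-34962912, ENSMUSG00000073418), the substrate of C1s, was listed at 0 in 23 of 35 mice and above 1 TPM only in WT DMSO replicate 1 (4.89 TPM, 145 reads). C2 (chr17:35081578-35117241, ENSMUSG00000024371), the other substrate of C1s, exceeded 1 TPM only in the same mouse (1.94 TPM, 39 reads). Cfb (chr17:35074852-35081559, ENSMUSG00000090231), which neighbours C2, was listed at 0 in 24 of 35 mice, in all 5 of C118F Btz among them, and reached 1.47 TPM in WT DMSO replicate 2 and 1.01 TPM in H77L DMSO replicate 5. C2 was above 0 at lower levels in other mice, and was listed at 0 in 16 of 35. WT DMSO replicate 1, with the highest C4b and C2, also held 481 TPM of leukocyte markers, 68.0 TPM of C1qb and 272 TPM of the fibroblast gene Dcn. The part of these other cells' transcripts was not tested.

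None of C3, C4b, C2 and Cfb passed the filter on low values (TPM above 1 in every mouse of a group) in any comparison. Two-sided exact permutation tests on the mean log2(TPM + 1) gave p = 0.526 for C3 in H77L and p = 0.37 in C118F, each against WT under DMSO, where 6 against 6 mice allow a smallest p of 0.00216. Over these 4 genes and all comparisons of groups, the lowest exact permutation p was 0.0411, for C2 between H77L Btz (0 to 0.101 TPM) and H77L DMSO (0 to 0.782 TPM), levels that rest on 17 reads or fewer per mouse. In the limma fit without the filter on low values, its adjusted p was 0.424. No difference in these 4 genes was thus detected, with C4b, C2 and Cfb at few reads per mouse and C3 spread widely between mice (2.73 ± 4.54 TPM (SD, n = 6) in H77L DMSO).

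**Figure D2:**
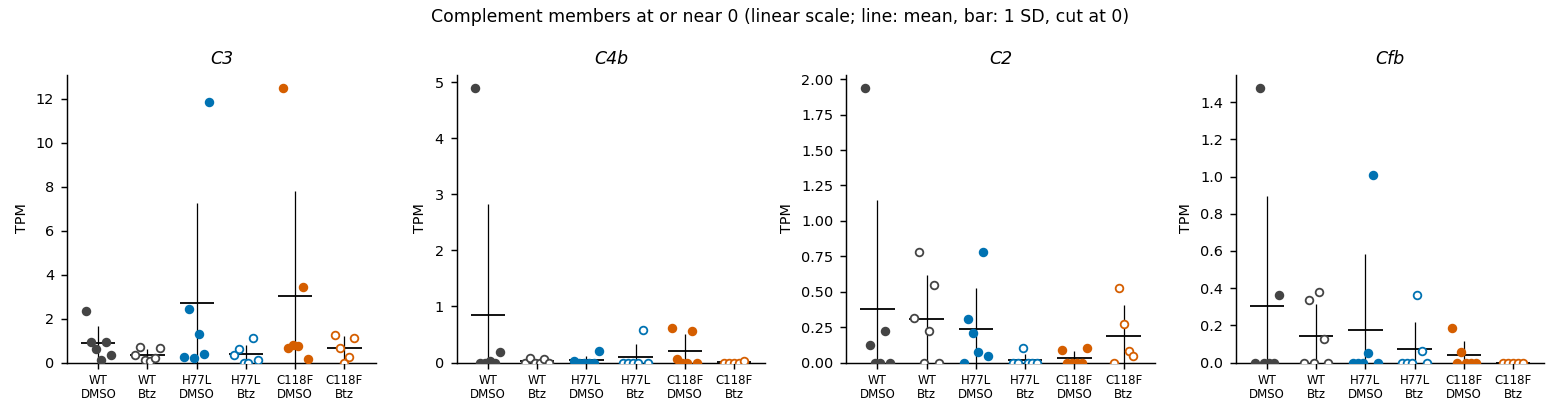
TPM of C3, C4b, C2 and Cfb (linear axes), with 1 point per mouse, filled for DMSO and open for Btz, a line at the mean and a bar of 1 SD cut at 0. Most points lie near 0, and the group means are set by single mice such as those at 11.8 and 12.5 TPM for C3 and 4.89 TPM for C4b.

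The membrane-bound inhibitors went the other way or stayed near the WT level. Cd59a (chr2:103926132-103947029, plus strand, GRCm39, ENSMUSG00000032679) was the most abundant member in WT podocytes, where its mean ranked 49th of all genes under DMSO. It was at 1447 to 2202 TPM in WT DMSO (median 1802), 621 to 810 in H77L DMSO (median 657) and 661 to 927 in C118F DMSO (median 767). Under Btz it was at 1593 to 2284 TPM in WT (median 1719), 666 to 1046 in H77L (median 786) and 697 to 1038 in C118F (median 845). The WT and knock-in mice did not overlap under either treatment.

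The log2 fold changes of Cd59a under DMSO were -1.37 ± 0.12 in H77L (adjusted p = 6.1e-07) and -1.21 ± 0.13 in C118F (adjusted p = 1.0e-05), so that WT levels were 2.59-fold and 2.31-fold those of the mutants. Under Btz they were -1.15 ± 0.12 (adjusted p = 3.8e-06) and -1.06 ± 0.13 (adjusted p = 3.3e-05). As Serping1 rose and Cd59a fell, the ratio of Serping1 to Cd59a TPM moved from 0.0799 ± 0.0242 (SD, n = 6) in WT DMSO to 1.25 ± 0.744 (SD, n = 6) in H77L DMSO and 1.29 ± 0.365 (SD, n = 6) in C118F DMSO. Cd59a shares 5.36% of its 50-base transcript windows with its paralog Cd59b. Podocyte markers fell in the same comparisons: 10 of 13 were lower in each knock-in group than in WT under either treatment. Of all genes tested, 11.0% to 22.4% were lower in these comparisons. The summed level of the podocyte markers was 25413 to 40988 TPM in WT DMSO and 5901 to 10780 TPM in H77L DMSO. The part of a general fall of podocyte transcripts in the level of Cd59a was not tested.

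Cd55 (chr1:130366469-130390926, minus strand, GRCm39, ENSMUSG00000026399), the decay accelerator of the C3 convertases, differed little. It was at 209 to 305 TPM in WT DMSO (median 251), 153 to 260 in H77L DMSO (median 192) and 144 to 274 in C118F DMSO (median 195). Under Btz it was at 236 to 370 TPM in WT (median 269), 164 to 246 in H77L (median 185) and 189 to 416 in C118F (median 241). The groups overlapped in each of these comparisons. Relative to WT it fell in H77L, by 0.36 on the log2 scale under DMSO (adjusted p = 0.048) and by 0.49 under Btz (adjusted p = 0.00532). The call under DMSO was lost in 11 of 18 alternatives, leaving out WT DMSO replicate 1 among them (adjusted p = 0.0923). In C118F the log2 fold changes were -0.38 ± 0.15 under DMSO (adjusted p = 0.0752) and -0.04 ± 0.18 under Btz (adjusted p = 0.907, 95% interval -0.43 to 0.36). Under DMSO, C118F gained a call in 2 of 19 alternatives, with mouse number as covariate and without C118F DMSO replicate 6. Under Btz it gained a call in 1 of 17, with mouse number as covariate.

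Across the 9 members, 5 were thus tested and 4 were not. In H77L against WT under DMSO, 3 members rose (Serping1, C1s1, C1ra) and 2 fell (Cd59a, Cd55), where 22.4% of the 10964 genes tested were higher and 22.4% were lower. In C118F against WT under DMSO, the same 3 rose and 1 fell, where 13.7% of genes were higher and 16.6% lower. Under Btz, 3 rose and 2 fell in H77L, where 12.5% of genes were higher and 11.0% lower. In C118F under Btz, 3 rose and 1 fell, where 15.1% of genes were higher and 12.4% lower. The median log2 fold change of the 5 tested members was 1.96, 1.82, 1.24 and 1.601 in these comparisons in turn, and that of all genes -0.01, -0.06, -0.01 and 0.00. The median of the members is the value of C1ra each time, and it does not measure a shift of the set. The comparisons under one treatment share their WT mice, and the knock-in genotypes are therefore not independent of each other.

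By the cutoffs the study used for up-regulated genes (adjusted p below 0.001 and a log2 fold change above 2), Serping1 and C1s1 were counted in H77L under DMSO, where 1.62% of all genes were. The study applied them to a count model with shrunken fold changes. Here they were applied to the limma fits, so that these counts are not the study's own calls. Serping1 alone was counted in C118F under DMSO (1.63% of all genes), no member in H77L under Btz (0.925% of all genes) and C1s1 alone in C118F under Btz (1.52% of all genes). C1s1 was near the cutoff under DMSO in C118F, with a log2 fold change of 1.91, and without WT DMSO replicate 1 both it and Serping1 were counted.

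Markers of other cells moved with these genes in part. Ptprc, Pecam1 and Cdh5 had group medians below 1 TPM in all groups, and Pdgfra below 0.1 TPM. Of 12 leukocyte markers, 3 were tested in H77L and 4 in C118F under DMSO, and Csf1r alone rose, by log2 fold changes of 1.23 (adjusted p = 0.00157) and 0.815 (adjusted p = 0.0206). It rose under Btz as well, as did Cd68 in C118F. The leukocyte marker Lyz2 fell in C118F under DMSO (log2 fold change -3, adjusted p = 0.0361). Of 10 tubule markers, Cubn alone rose in H77L under DMSO (1.65, adjusted p = 0.00135) and under Btz in both mutants, and Kap fell in C118F under DMSO. Of 9 endothelial and mesangial markers only Ehd3 and Pdgfrb were tested, and Ehd3 did not pass (log2 fold changes -0.148 and 0.0921 under DMSO). Pdgfrb, a marker of mesangial cells and pericytes, rose from 9.28 to 22.1 TPM in WT DMSO to 144 to 544 TPM in H77L DMSO (log2 fold change 3.90, adjusted p = 9.5e-08) and 64.1 to 277 TPM in C118F DMSO (3.10, adjusted p = 2.2e-05). Cldn1, a marker of parietal epithelial cells, rose by 2.01 (adjusted p = 1.8e-06) and 1.70 (adjusted p = 3.4e-05). The summed level of the 9 endothelial and mesangial markers was 29.6 to 59.6 TPM in WT DMSO, 178 to 574 in H77L DMSO and 79.7 to 2338 in C118F DMSO. Without Pdgfrb and Ren1 the other 7 of these markers summed to 14.8 to 41.4 TPM, 13.1 to 31.5 TPM and 14.5 to 108 TPM, where the highest value is C118F DMSO replicate 1 and the next is 35.5 TPM. The sum of the 3 parietal markers was 28.9 to 53.0 TPM in WT DMSO, 98.3 to 222 in H77L DMSO and 70.4 to 154 in C118F DMSO. Cldn1 made up most of this sum, and Pax2 did not exceed 0.556 TPM. Pax8 rose under DMSO, by 0.947 in H77L (adjusted p = 4.8e-04) and 0.907 in C118F (adjusted p = 0.00123). Under Btz it was not called (adjusted p = 0.115 and 0.105). The part of cells expressing Pdgfrb, Cldn1, Csf1r or Cubn in the rise of Serping1, C1ra and C1s1 was not tested.

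**Figure D3:**
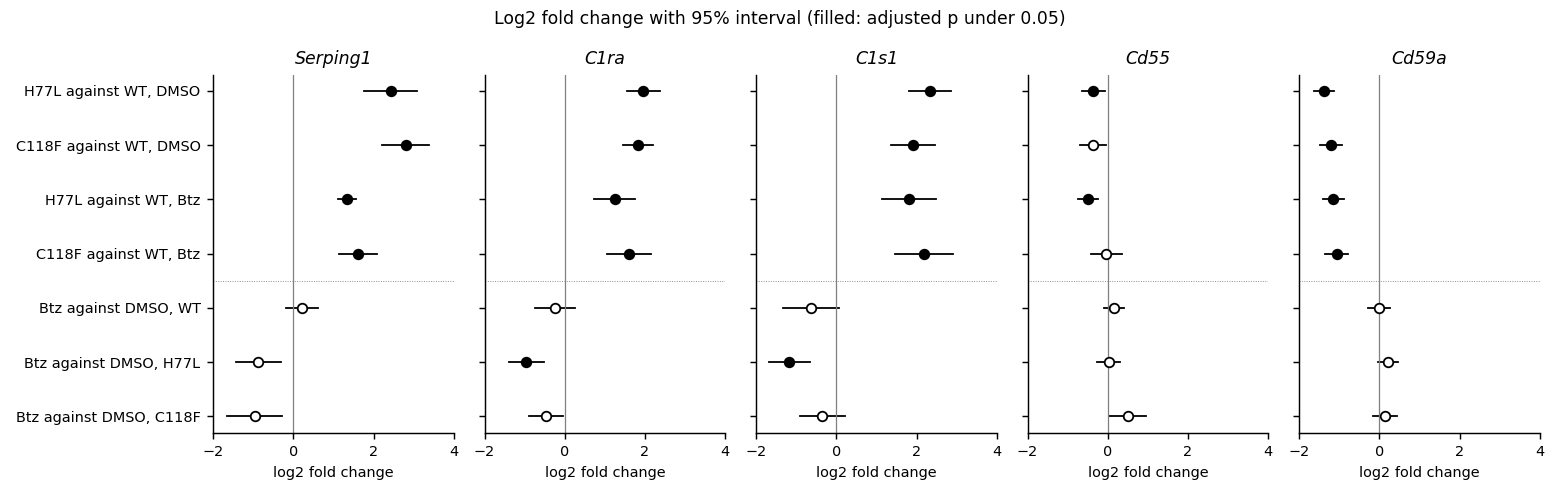
Log2 fold changes of 5 members (x axis) in the 4 genotype comparisons and the 3 comparisons of Btz with DMSO (rows), with 95% intervals and filled points where the adjusted p was below 0.05. Serping1, C1ra and C1s1 are filled to the right of 0 in all genotype comparisons and Cd59a to the left of 0, and with Btz the filled points are those of C1ra and C1s1 in H77L.

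With bortezomib the proteases were lower in H77L podocytes. C1s1 fell by 1.17 on the log2 scale (SE 0.24, adjusted p = 0.0352), from 41.9 to 88.5 TPM under DMSO to 16.7 to 41.8 TPM under Btz, and these ranges did not overlap. C1ra fell by 0.96 (SE 0.20, adjusted p = 0.0401), from 40.6 to 95.1 TPM to 16.9 to 39.3 TPM, again without overlap. The share of all genes that fell in this comparison was 0.740%. Both calls lay close to the threshold: each was lost in 8 of 18 alternatives, in which C1s1 had log2 fold changes between -1.31 and -1.05 and C1ra between -1.07 and -0.81. Leaving out H77L DMSO replicate 2 or 4, or H77L Btz replicate 2, 3, 4 or 6, ended both calls (highest adjusted p = 0.089 for C1s1 and 0.0879 for C1ra), and leaving out H77L Btz replicate 5 ended that of C1ra.

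The levels under Btz remained above those of WT mice, as given above. Serping1 had a log2 fold change of -0.88 ± 0.26 with Btz in H77L (95% interval -1.44 to -0.32) that did not pass the adjustment (adjusted p = 0.0904), with 325 to 485 TPM under Btz against 418 to 1557 TPM under DMSO. The coefficient of variation of Serping1 was 53.2% under DMSO and 13.2% under Btz in H77L, 42.1% and 12.5% in WT, and 39.5% and 45.1% in C118F, and these spreads were not tested against each other. Cd59a (0.21 ± 0.12, adjusted p = 0.331) and Cd55 (0.02 ± 0.14, adjusted p = 0.962) did not pass the test.

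In C118F none of the 5 tested members was called with Btz, where 0% of the 10814 genes were called by limma (634 at an unadjusted p below 0.05, and 0 by limma voom). Serping1 was at 515 to 1670 TPM under DMSO and 347 to 840 TPM under Btz, with a log2 fold change of -0.97 ± 0.32 (95% interval -1.65 to -0.29, adjusted p = 0.784). The other values were -0.36 for C1s1, -0.46 for C1ra, 0.49 for Cd55 and 0.13 for Cd59a, and Serping1, C1ra and Cd55 were below 0.05 before adjustment over all genes. In WT, again, no member was called, and 0% of 10659 genes were (923 at an unadjusted p below 0.05, and 0 by limma voom). There the log2 fold change was 0.21 for Serping1 (95% interval -0.18 to 0.61), -0.64 for C1s1 (-1.33 to 0.06) and -0.24 for C1ra (-0.75 to 0.26).

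Whether the response to Btz differed between genotypes was tested by interaction terms. None of the 5 members passed for H77L against WT, C118F against WT or H77L against C118F, and the share of all genes called was 0% in each by limma (2037, 560 and 840 genes at an unadjusted p below 0.05, and 0 in each by limma voom). The response of Serping1 differed by -1.09 between H77L and WT (95% interval -1.81 to -0.38, adjusted p = 0.114) and by -1.18 between C118F and WT (-1.97 to -0.39, adjusted p = 0.817). The difference between H77L and C118F was 0.09 (-0.82 to 1.00, adjusted p = 0.953). For C1s1 and C1ra the differences between H77L and WT were -0.53 (adjusted p = 0.525) and -0.72 (adjusted p = 0.246). Between H77L and C118F they were -0.81 (95% interval -1.59 to -0.03, adjusted p = 0.65) and -0.50 (-1.12 to 0.12, adjusted p = 0.664). After adjustment, the calls for C1s1 and C1ra in H77L are thus not shown to be particular to that genotype.

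The 2 mutants were compared with each other under each treatment. None of the 5 members was called, where 0% of 10809 genes were called under DMSO by limma (416 at an unadjusted p below 0.05, and 0 by limma voom) and 0.972% of 10803 genes under Btz. Under DMSO, C118F minus H77L was 0.37 for Serping1 (95% interval -0.35 to 1.09), -0.44 for C1s1 (-0.96 to 0.09), -0.14 for C1ra (-0.55 to 0.28), -0.02 for Cd55 (-0.39 to 0.35) and 0.16 for Cd59a (-0.09 to 0.42). Under Btz the corresponding values were 0.29, 0.38, 0.36, 0.45 and 0.09, and Cd55 alone was below 0.05 before adjustment over all genes (adjusted p = 0.263). In the order of median levels, Serping1 was lowest in WT DMSO, followed by WT Btz, C118F Btz, H77L Btz, H77L DMSO and C118F DMSO. By mean level C118F Btz (531 TPM) was above H77L Btz (405 TPM), so that these groups have no fixed order. Of the neighbours by median, WT Btz and C118F Btz differed past the adjusted threshold, and H77L Btz and H77L DMSO differed with an interval that excludes 0 but an adjusted p of 0.0904. The intervals of the other neighbouring pairs included 0.

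Of 49 other complement genes in the matrix, 5 or 6 passed the filter on low values in a comparison. Under DMSO, 2 of them rose in each mutant, C1rl and Clu, and 1 fell, Cd59b. The same 3 were called under Btz. Of all genes tested under DMSO, 22.4% were higher and 22.4% lower in H77L, and 13.7% and 16.6% in C118F. Under Btz, the shares were 12.5% and 11.0% in H77L, and 15.1% and 12.4% in C118F. The remaining C8g, Cr1l and (in comparisons with C118F DMSO) Masp1 did not pass the test in a genotype comparison. Over all the tested genes of this list together, Clu, C1rl and Cd59b included, the median log2 fold change under DMSO was -0.17 in H77L (5 genes) and 0.42 in C118F (6 genes). These medians cover different genes and cannot be set against each other. The C118F median also holds Masp1 (log2 fold change 1.07), which passed the filter only through C118F DMSO, where its mean was highest.

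Clu encodes clusterin, a soluble inhibitor of the terminal complement complex. It was at 6.78 to 134 TPM in WT DMSO (median 28.4), 350 to 1011 in H77L DMSO (median 488) and 457 to 1207 in C118F DMSO (median 578), and the log2 fold changes were 4.07 ± 0.56 (adjusted p = 5.8e-05) and 4.37 ± 0.57 (adjusted p = 4.7e-05). The 2 highest WT DMSO mice, at 134 and 90.8 TPM, were replicate 1, with the high leukocyte and fibroblast markers, and replicate 2, with 2216 TPM of summed tubule markers. Without replicate 1 the log2 fold changes of Clu were 4.48 in H77L and 4.79 in C118F, and without replicate 2 they were 4.37 and 4.67. Under Btz, Clu was at 5.28 to 18.6 TPM in WT (median 10.8), 152 to 330 in H77L (median 181) and 316 to 863 in C118F (median 524). It fell with Btz in H77L (log2 fold change -1.45 ± 0.24, adjusted p = 0.0203) and was higher in C118F than in H77L under Btz (1.40 ± 0.23, adjusted p = 0.014). The former call was lost in 6 of 18 alternatives (highest adjusted p = 0.116) and the latter in 3 of 17 (highest adjusted p = 0.197), with the direction kept in each. The difference between the H77L and C118F responses was itself -1.09 (95% interval -1.91 to -0.28) and did not pass the adjustment (adjusted p = 0.65). In WT the log2 fold change of Clu with Btz was -1.49 (95% interval -2.67 to -0.31), not called (adjusted p = 0.56). The H77L and WT responses differed by 0.04 (-1.32 to 1.4, adjusted p = 0.983). The fall of Clu with Btz is thus not shown to be particular to H77L.

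C1rl, a relative of C1r, was at 5.70 to 10.9 TPM in WT DMSO, 18.4 to 22.3 in H77L DMSO and 16.3 to 25.2 in C118F DMSO (log2 fold changes 1.15 ± 0.14 and 1.15 ± 0.17, adjusted p = 1.7e-05 and 1.1e-04). It thus rose beside C1ra and C1s1 but by less, and with Btz its log2 fold change in H77L was 0.12 (adjusted p = 0.616). Cd59b, the paralog of Cd59a, was at 63.3 to 110 TPM in WT DMSO, 30.6 to 42.8 in H77L DMSO and 33.3 to 44.6 in C118F DMSO, with log2 fold changes of -1.31 ± 0.14 (adjusted p = 4.2e-06) and -1.26 ± 0.14 (adjusted p = 1.0e-05), close to those of Cd59a. Cd59a was 19.8 ± 3.07 times (SD, n = 6) as abundant as Cd59b in WT DMSO and 19.1 ± 1.14 times (SD, n = 6) in H77L DMSO.

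**Figure D4:**
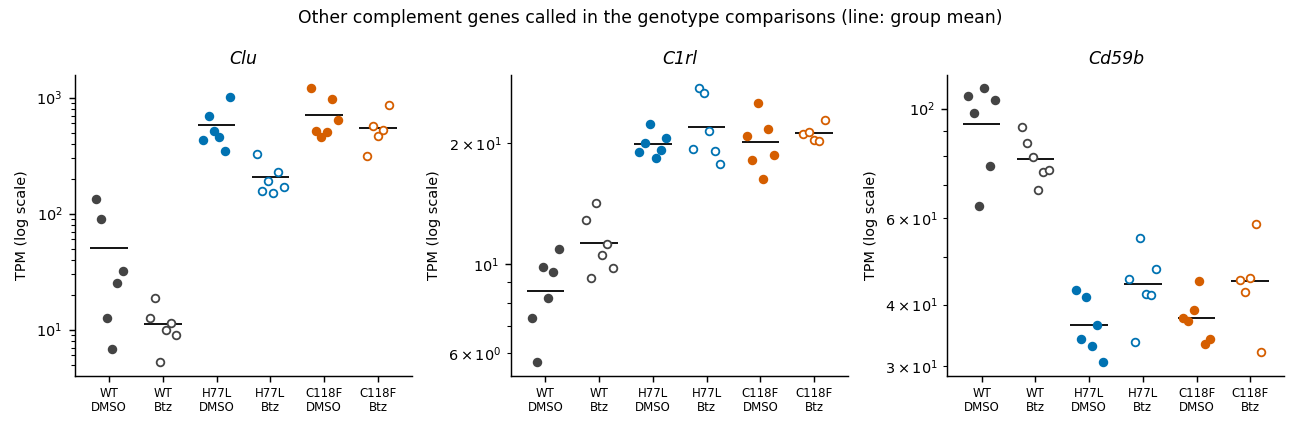
TPM of Clu, C1rl and Cd59b (log axes), with 1 point per mouse, filled for DMSO and open for Btz, and a line at the group mean. Clu and C1rl are higher and Cd59b is lower in both knock-in genotypes, and Clu spreads widely among WT DMSO mice, from 6.78 to 134 TPM.

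To see which members varied together between mice of the same group, the group mean was subtracted from log2(TPM + 1) and the deviations of all 35 mice were correlated, for 36 pairs. With 100000 permutations within groups and Benjamini-Hochberg adjustment over the 36 pairs, 10 pairs passed an adjusted p of 0.05, all with a positive r. The share of pairs that would pass among all genes was not tested, so that the count is not shown to be particular to this set. Serping1, Cd55 and Cd59a each had a higher r with genes outside the set than with any member, as given below. The neighbours C1s1 and C1ra had the highest r, 0.749 (permutation p = 1e-05, the smallest the permutations can give, adjusted p = 3.6e-04), and a rho of 0.776 (permutation p = 1e-05, adjusted p = 3.6e-04). Within groups their r ran from 0.655 to 0.938, and without the 2 mice farthest from the median of C1s1 it was 0.716. The inhibitors Cd55 and Cd59a followed, with r = 0.693 (permutation p = 5.0e-05, adjusted p = 9.0e-04), rho = 0.659 (permutation p = 1.8e-04, adjusted p = 0.00216), 0.529 to 0.890 within groups, and 0.697 without the 2 mice. Mice with more Cd59a than others of their group thus tended to have more Cd55.

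Serping1 followed the proteases less closely than they followed each other. Its r was 0.402 with C1s1 (permutation p = 0.0126, adjusted p = 0.048, rho = 0.459 with permutation p = 0.00741) and 0.448 with C1ra (permutation p = 0.00706, adjusted p = 0.0318, rho = 0.451 with permutation p = 0.012), and without the 2 mice farthest from the median of Serping1 the values were 0.294 and 0.319. Neither pair passed without WT DMSO replicate 1 and C118F DMSO replicate 1 (r = 0.27, adjusted p = 0.322, and r = 0.351, adjusted p = 0.196, by permutation). With C3, Serping1 had r = 0.668 (permutation p = 3.9e-04, adjusted p = 0.00234, rho = 0.587 with permutation p = 0.00273), 0.552 without the 2 mice, and an adjusted permutation p of 0.056 without the 2 replicates named. C3 and C1s1 had r = 0.558 (permutation p = 8.0e-05, adjusted p = 9.6e-04), rho = 0.632 (permutation p = 7.0e-05, adjusted p = 0.00126), and 0.488 without 2 mice. The other 4 pairs that passed were C3 with C1ra (r = 0.528), C3 with C4b (0.467), Serping1 with C4b (0.504) and C1s1 with C4b (0.336). By rho, C1s1 with C4b did not pass (adjusted permutation p = 0.0504) and the others did. Pairs with C3 or C4b rest on low levels: neither gene passed the filter on low values, and C4b was listed at 0 in 23 of 35 mice. Without the 2 replicates named, C3 with C4b still passed (r = 0.547, adjusted permutation p = 0.0271), while C3 with C1ra (r = 0.452, adjusted permutation p = 0.0506), Serping1 with C4b (r = 0.324, adjusted permutation p = 0.161) and C1s1 with C4b (r = 0.154, adjusted permutation p = 0.652) did not. Serping1 with C4b was lost without WT DMSO replicate 1 alone (r = 0.429, adjusted permutation p = 0.0511), and C1s1 with C4b without either mouse alone (r = 0.272, adjusted permutation p = 0.316, and r = 0.297, adjusted permutation p = 0.142).

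**Figure D5:**
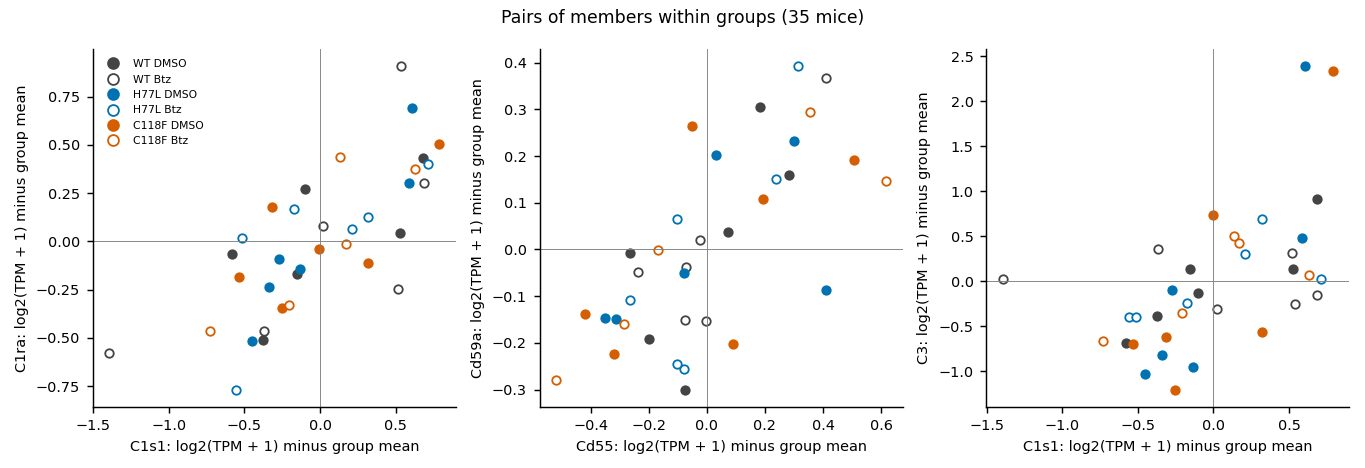
Deviations of log2(TPM + 1) from the group mean for C1s1 and C1ra, Cd55 and Cd59a, and C1s1 and C3, with 1 point per mouse, colored by genotype, filled for DMSO and open for Btz. The first pair (r = 0.749) and the next (r = 0.693) rise over the whole range, and in the last (r = 0.558) a single H77L and a single C118F mouse lie far above the others.

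Genes that varied most like each expressed member, among those above 1 TPM in all mice of a group, were named by the same r over the 35 mice. For Serping1 they were Masp1 (0.814), a protease of the lectin pathway, Tnc (0.813), which encodes the matrix protein tenascin C, and Lgals3bp (0.803). Masp1 was low, at 1.28 to 13.8 TPM in C118F DMSO and 0.0582 to 0.52 TPM in H77L Btz. It was among the genes compared only through C118F DMSO, the group with its highest mean, so that its place at the top is not evidence. For C1ra they were Xist (0.692), the acute-phase gene Hp (0.665) and Pramel12 (0.66), and for C1s1 Jrkl (0.672), Bend7 (0.646) and Zfp954 (0.64). For Cd55 they were Sucla2 (0.792), Dnajc1 (0.791) and Srp68 (0.776), and for Cd59a Eif3j1 (0.774), Rnf130 (0.736) and Snx6 (0.729). The r of C1ra with C1s1 was above that of either with any gene outside the set. Sex is not given in the labels of the mice, and its part in the r of C1ra with Xist was not tested.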

How the data were processed

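Per the labels and the study's methods, podocyte libraries were made from poly(A) RNA with the SMART-Seq mRNA kit, trimmed with Trim Galore 0.6.7, aligned with STAR to GRCm39 and counted per gene with featureCounts 1.6.3 on Ensembl 110, and the authors deposited the result as TPM, which sum to 1000000 in each mouse. Reads mapping to up to 20 places were kept at 1 place drawn at random, so that genes with near-identical copies are uncertain. Depth is not in the matrix. Because a gene's TPM values are multiples of what 1 read is worth, whole reads were recovered for 23942 of 23943 genes above 0, within 0.0001 of a whole number. A count test on these reads (limma voom, chosen after seeing the data) was an alternative.

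Log2(TPM + 1) was fitted with limma 3.58.1 (R 4.3.3, trend) on the groups of each comparison, for genes above 1 TPM in every mouse of at least 1 group compared, with Benjamini-Hochberg adjustment over all genes tested and calls at an adjusted p of 0.05. The fits were tested on simulated data. Low members were tested by two-sided exact permutation over mice. The members and gene lists were chosen with earlier results of these data known. Of other complement genes, those called in at least 1 comparison were named, up to the 12 highest, and for each expressed member the 3 genes with the highest r. Groups came from the labels, whose mouse numbers do not pair mice. Per the study, mice came from several litters. Which mice shared a litter or sort day is not given in the sources used here, and p-values measure the spread between these mice. Counts of reads carry counting error only. Gene positions come from GENCODE vM39 (GRCm39). Alternatives were a pseudocount of 0.1, no filter, 1 fit of all 35 mice, median-of-ratios scaling, mouse number as covariate and leaving out each mouse. Items withheld from reporting are not given here.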

Additional observations from a re-analysis of the deposited data

Results flagged for a closer look

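Over 54 sets of values (9 members in 6 groups), a single mouse stood apart from the rest of its group by Dixon's criterion in 15, where chance alone flags about 1 in 20 groups, and the low members, with most mice at or near 0, made up 12 of them. All were high values. Among the expressed members these were Serping1 in WT DMSO replicate 1 (267 TPM) and both Cd55 (370 TPM) and Cd59a (2284 TPM) in WT Btz replicate 6.

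C3 stood out in H77L DMSO replicate 6 (11.8 TPM) and C118F DMSO replicate 1 (12.5 TPM). C4b did so in WT DMSO replicate 1 (4.89 TPM), H77L DMSO replicate 6 (0.209), H77L Btz replicate 5 (0.589) and C118F Btz replicate 5 (0.0293), and C2 in WT DMSO replicate 1 (1.94) and H77L Btz replicate 3 (0.101). Cfb was high in WT DMSO replicate 2 (1.47), H77L DMSO replicate 5 (1.01), H77L Btz replicate 4 (0.365) and C118F DMSO replicate 1 (0.185).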

How the results depend on the processing

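Serping1, C1s1, C1ra and Cd59a kept their direction and their call in the 4 comparisons of mutant with WT under every alternative run. The number of members called with Btz in H77L was 2, and it became 0 without the filter on low values, 1 with all 35 mice in 1 fit, and 0 to 2 when single mice were left out. By the study's cutoffs, the count for H77L under DMSO was 2, became 1 with mouse number as covariate and 3 with a pseudocount of 0.1, and lay between 2 and 3 when mice were left out. For C118F under DMSO it was 1, became 2 with limma voom, and lay between 1 and 2 when mice were left out. For C118F under Btz it was 1, became 0 without the filter and with mouse number as covariate, and lay between 0 and 1 when mice were left out. The number of pairs of members that moved together was 10, and it became 5 without WT DMSO replicate 1 and C118F DMSO replicate 1 and lay between 6 and 10 when single mice were left out. The cause of these changes was not tested. Of 1245 alternative values of single members, 27 lost and 3 gained a call, and none changed sign with a call. No paired analysis was possible because the columns carry no shared replicate numbers. Values of C4b, C2 and Cfb rest on at most 145 reads in a mouse.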

Other observations

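Masp1, a protease of the lectin pathway that was singled out after its values were seen, was at 8.46 TPM in H77L DMSO replicate 6 and at 7.75 TPM in C118F DMSO replicate 1, the mice in which C3 was highest in its group. Its highest value, 13.8 TPM, was in C118F DMSO replicate 5.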
